A study of Homo sapiens with 12 samples.

Results

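Protein kinase C and protein kinase D isozymes other than protein kinase C iota were examined in spheroids of H1299, an established human line of non-small cell lung carcinoma. The 9 genes were taken by name from the deposited expression table: PRKCA and PRKCB, of the conventional class (cPKC); PRKCD, PRKCE, PRKCH and PRKCQ, of the calcium-independent, diacylglycerol-dependent class (nPKC); and PRKD1, PRKD2 and PRKD3, which encode the protein kinase D family. All 9 were found among 64253 entries, each under a name that occurs once. The 12 libraries fall into 4 groups of 3. SOX2_KD cells carried a lentiviral short hairpin RNA against SOX2, a transcription factor of stem cells, and NT2 was their non-targeting control. PRKCI_KD cells carried a hairpin against PRKCI, which encodes protein kinase C iota, and NT1 was their non-targeting control. PRKCI_KD and NT1 were sequenced together on lane 8 of a flow cell, and SOX2_KD and NT2 together on lane 7 of another, so each knockdown was set against the control of its own flow cell. The labels do not give the number of hairpins per target or the cultures behind the replicates, so effects of a hairpin outside its target were not separable and p-values measure only the spread between these libraries, which may be technical.

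Protein kinase C isozymes are serine/threonine kinases that differ in what turns them on. The cPKC isozymes respond to calcium and diacylglycerol, a lipid made by phospholipase C; nPKC isozymes respond to diacylglycerol without calcium; and atypical isozymes, PKC iota and PKC zeta, respond to neither and are steered by protein partners such as PAR6 in cell polarity. Protein kinase D binds diacylglycerol as well, belongs by its kinase domain to another branch of the kinases, and is activated by phosphorylation by nPKC isozymes. PRKCI lies on the long arm of chromosome 3 and is known as an amplified oncogene of squamous lung cancer. The comparison of PRKCI_KD with NT1 addresses whether RNA of the other isozymes was higher where PRKCI was lowered.

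The knockdown was seen in the targeted gene. PRKCI had 2.43, 2.58 and 2.49 RPKM (reads scaled by gene length and by the read total of the library) in PRKCI_KD, against 13.8, 14.3 and 16.4 RPKM in NT1, a log2 fold change of -2.18 with an SE of 0.09 (adjusted p = 1.52e-08). In bulk RNA, fewer cells with a transcript and less of it per cell cannot be told apart. All fold changes are on the log2(RPKM + 1) scale, which understates the change of genes at low levels, and adjusted p-values are from limma over 19777 genes with a threshold of 0.05. SOX2 had 0.523, 0.582 and 0.588 RPKM in SOX2_KD, against 1.41, 1.48 and 1.55 RPKM in NT2 (log2 fold change -0.66, adjusted p = 2.19e-04). The read totals, recovered from the values, lay between 77.1 and 124.3 M per library. Among the isozymes tested, the fewest reads were 345, for PRKCQ in PRKCI_KD replicate 2, where counting alone gives an SD of 5.4%; the most were 31945, for PRKCA in NT2 replicate 2. Of the markers of the cell, KRT8 (34.9 to 121 RPKM), KRT18 (53.3 to 141 RPKM) and VIM, the gene of vimentin (304 to 657 RPKM), were high, while the epithelial genes EPCAM and CDH1 reached at most 0.555 and 0.0677 RPKM. The 4 immune and 2 endothelial markers listed summed to at most 0.139 and 0.0850 RPKM in any library.

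In PRKCI_KD the order of levels was PRKD2 and PRKD3 (9.24 and 9.05 RPKM, ranges overlapping), then PRKCD and PRKCA (5.36 and 5.21 RPKM, overlapping), and then PRKCE, PRKCI and PRKD1, which stood at 2.51, 2.50 and 2.49 RPKM and could not be ordered. PRKCH and PRKCQ followed at 1.35 and 1.17 RPKM. In NT1, PRKCI was the most abundant of the 10 genes, at 14.8 RPKM. PRKD2, PRKD3 and PRKCD came next there at means of 9.66, 8.94 and 8.82 RPKM with ranges that overlapped, followed by PRKCA at 5.81, PRKD1 at 2.24, PRKCE at 1.91, PRKCH at 1.74 and PRKCQ at 1.69 RPKM. Of these 5, only PRKCH and PRKCQ had overlapping ranges. On the other flow cell PRKCA led, at 22.9 RPKM in SOX2_KD and 24.7 RPKM in NT2, above PRKCI, which stood at 16.1 RPKM in SOX2_KD and 16.7 RPKM in NT2. The plot of RPKM by library shows the members gene by gene.

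**Figure D1:**
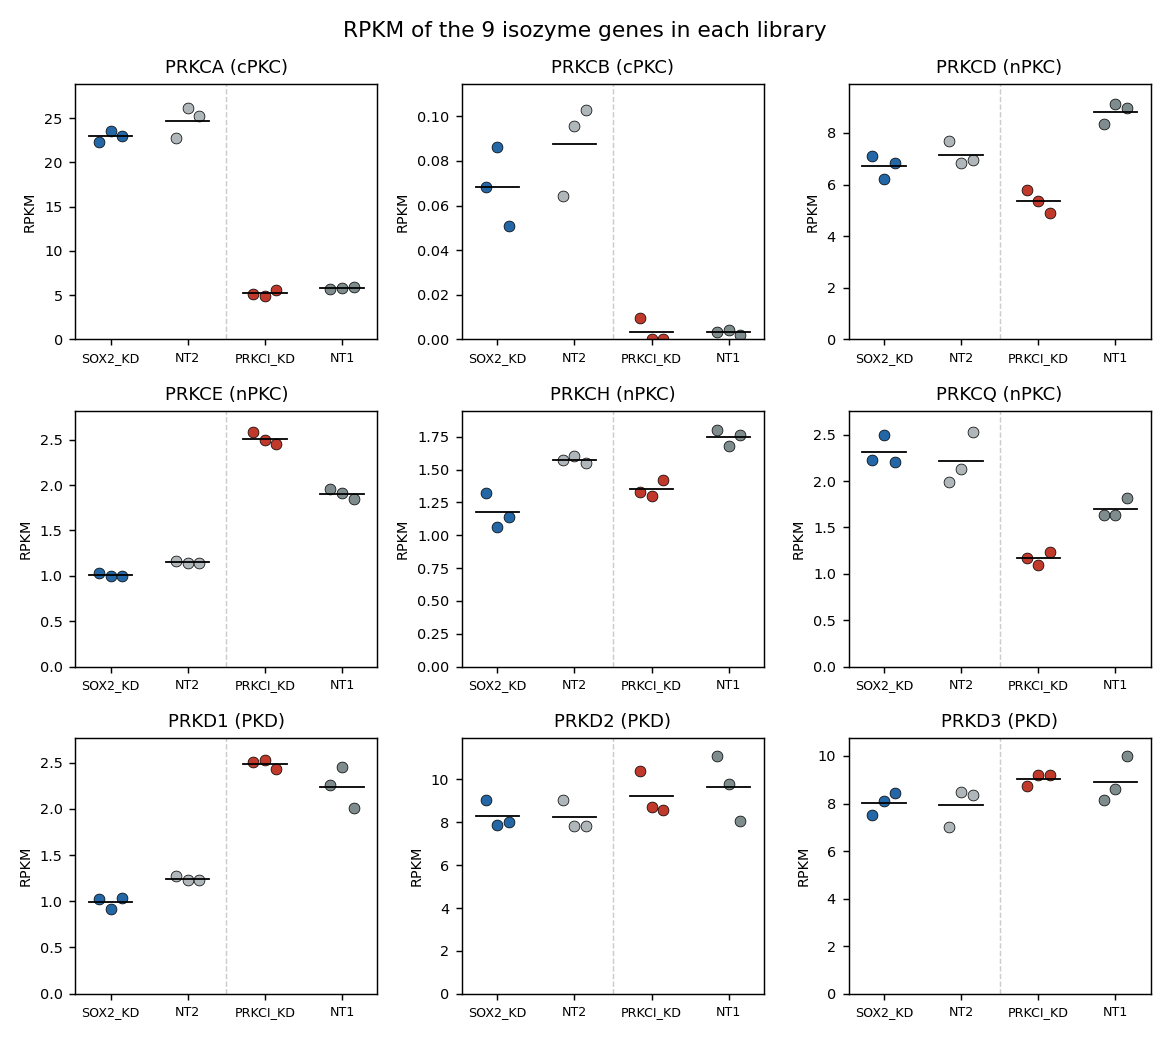
RPKM (vertical axis, starting at 0, with its own scale per gene) of each isozyme gene in the 12 libraries; points are libraries, horizontal lines are group means of 3, and the dashed line separates the flow cells. PRKCD lies between 4.91 and 5.79 RPKM in PRKCI_KD, below 8.33 to 9.14 RPKM in NT1, and PRKCE lies above NT1, while PRKCA differs mainly between the flow cells.

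The promoters of the 4 genes that changed in PRKCI_KD are shown to let their base composition be compared; each is a window of 300 bases around a transcription start in RefSeq (GRCh38.p14), most of it upstream, written in the direction of the gene, with GGGCGG on either strand, the GC box bound by SP family factors, in capitals. For PRKCD the entry is the first of 3 listed, at chr3:53160959-53161258 on the plus strand. That of PRKCE lies at chr2:45651425-45651724 (plus), that of PRKCH at chr14:61321329-61321628 (plus), and that of PRKCQ at chr10:6580597-6580896 (minus). The windows of PRKCD, PRKCE and PRKCH lie inside the spans that GENCODE 29 gives to these genes. That of PRKCQ lies wholly upstream of its GENCODE 29 span. Which start is used in these cells was not tested.
PRKCD: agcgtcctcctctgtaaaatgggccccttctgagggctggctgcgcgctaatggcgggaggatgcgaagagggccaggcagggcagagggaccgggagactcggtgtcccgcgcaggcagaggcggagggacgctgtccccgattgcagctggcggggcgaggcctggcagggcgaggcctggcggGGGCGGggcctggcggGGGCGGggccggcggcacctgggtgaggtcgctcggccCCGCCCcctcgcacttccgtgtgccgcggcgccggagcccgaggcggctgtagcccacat
PRKCE: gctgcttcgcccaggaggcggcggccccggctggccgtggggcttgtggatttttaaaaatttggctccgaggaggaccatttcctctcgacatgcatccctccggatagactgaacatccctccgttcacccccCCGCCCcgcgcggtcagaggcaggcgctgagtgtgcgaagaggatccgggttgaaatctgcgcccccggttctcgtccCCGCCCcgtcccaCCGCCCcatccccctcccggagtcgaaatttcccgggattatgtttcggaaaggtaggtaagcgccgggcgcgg
PRKCH: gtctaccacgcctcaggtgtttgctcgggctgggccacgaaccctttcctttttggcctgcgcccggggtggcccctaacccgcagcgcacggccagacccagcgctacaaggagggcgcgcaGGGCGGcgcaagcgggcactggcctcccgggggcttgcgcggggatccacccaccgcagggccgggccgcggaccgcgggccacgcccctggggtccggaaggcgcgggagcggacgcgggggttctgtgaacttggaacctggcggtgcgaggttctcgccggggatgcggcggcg
PRKCQ: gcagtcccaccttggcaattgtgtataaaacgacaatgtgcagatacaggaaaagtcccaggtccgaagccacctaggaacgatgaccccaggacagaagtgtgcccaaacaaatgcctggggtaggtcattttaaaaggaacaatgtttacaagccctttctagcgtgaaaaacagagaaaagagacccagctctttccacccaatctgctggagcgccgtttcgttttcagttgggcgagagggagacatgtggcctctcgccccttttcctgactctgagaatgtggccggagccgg
PRKCD, PRKCE and PRKCH are rich in CG pairs, with 32, 30 and 37 in 300 bases against a median of 14 over 27305 promoters of this length, and hold 3, 3 and 1 GC boxes. PRKCQ, the isozyme best known from T cells, has 11 CG pairs and no GC box. GGGCGG occurs in 44.6% of all these promoters, TGACTCA (the AP-1 motif, in 4.9%) and ACGTG (the core of the hypoxia response element, in 21.6%) were also searched on both strands, and neither was found in the window of any of the 9 genes. All 9 genes were matched by symbol. In GENCODE 29 (GRCh38) PRKCD spans chr3:53156009-53192717, on the other arm from PRKCI at chr3:170222365-170305981. PRKCE spans chr2:45651345-46187990, PRKCH chr14:61187559-61550976, PRKCQ chr10:6427143-6580301 and PRKCA chr17:66302636-66810743, while PRKCB lies on chromosome 16, PRKD1 on 14, PRKD2 on 19 and PRKD3 on 2.

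Of the 9 isozyme genes in PRKCI_KD, PRKCE was higher than in NT1, PRKCD, PRKCQ and PRKCH were lower, 4 did not pass the test, and PRKCB was too low to be tested. Over all genes tested, 18.1% were called higher and 27.0% lower in this comparison. Against those shares, 1 of 8 higher and 3 of 8 lower is near the background, and the counts are no result particular to the isozymes. The median log2 fold change of the 8 was -0.09, and that of all genes tested was -0.036.

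Among the nPKC isozymes, PRKCD encodes PKC delta, widely expressed and known for roles in apoptosis. It had 5.79, 5.38 and 4.91 RPKM in PRKCI_KD, against 8.33, 9.14 and 8.98 RPKM in NT1. Every PRKCI_KD library lay below every NT1 library, with a mean ratio of 0.608 and a log2 fold change of -0.63 (SE 0.07, 95% interval -0.78 to -0.47, adjusted p = 2.97e-05). This was the largest change among the isozymes, and by size it stood at place 1568 among the 19777 genes.

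PRKCE, the gene of PKC epsilon, is known as a transforming isozyme when overexpressed in rodent fibroblasts. Its level was 2.58, 2.50 and 2.45 RPKM in PRKCI_KD and 1.96, 1.91 and 1.85 RPKM in NT1. The groups did not overlap, and PRKCE rose 1.31-fold (log2 fold change 0.27, SE 0.04, interval 0.18 to 0.36, adjusted p = 2.81e-04). It was the only isozyme called higher, and its mean rose by 0.601 RPKM, against a loss of 12.3 RPKM for PRKCI.

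PRKCQ encodes PKC theta, which acts downstream of the T cell receptor in T cells and is also found in muscle. Its values were 1.17, 1.1 and 1.23 RPKM in PRKCI_KD, against 1.63, 1.63 and 1.82 RPKM in NT1. PRKCQ was lower in all 3 knockdown libraries, at 0.691 of the NT1 mean (log2 fold change -0.31, SE 0.07, interval -0.46 to -0.16, adjusted p = 0.00306). The T cell marker CD3E was at 0 RPKM in all 12 libraries.

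PRKCH, the gene of PKC eta, an isozyme of epithelia, fell too. It had 1.33, 1.30 and 1.42 RPKM in PRKCI_KD and 1.80, 1.68 and 1.76 RPKM in NT1, without overlap. The mean ratio was 0.772 and the log2 fold change -0.23 (SE 0.05, interval -0.34 to -0.11, adjusted p = 0.00422). In GENCODE 29 its exons share 419, 356 and 133 bases with AL355916.2, TMEM30B and AL359220.1, and the library kit does not mark strand; TMEM30B reached at most 0.0479 RPKM.

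In the cPKC class, PRKCA, which encodes PKC alpha, had 5.08, 4.92 and 5.62 RPKM in PRKCI_KD, against 5.73, 5.84 and 5.86 RPKM in NT1. The knockdown libraries were all below the controls, but the difference did not pass the test (log2 fold change -0.14, interval -0.27 to -0.00, adjusted p = 0.0929). It passed with the replicate number as a block (adjusted p = 0.0354), without PRKCI_KD replicate 3 (0.0438) and without NT2 replicate 1 (0.0488). PRKCB, the gene of PKC beta, known from B cells, was close to absent on this flow cell, with 0.00958, 0 and 0 RPKM in PRKCI_KD and 0.00335, 0.00420 and 0.00203 RPKM in NT1. These are 9, 0 and 0 reads in PRKCI_KD against 4, 4 and 2 reads in NT1, and a count of 0 allows up to 3 reads, or 0.00315 and 0.00342 RPKM in PRKCI_KD replicates 2 and 3, counting error only. No difference in PRKCB was detectable at this depth.

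None of the protein kinase D genes passed the test in PRKCI_KD. PRKD1, which encodes PKD1, had 2.51, 2.53 and 2.43 RPKM in PRKCI_KD, against 2.26, 2.45 and 2.01 RPKM in NT1, and the ranges overlapped. Its log2 fold change of 0.11 had an interval of -0.01 to 0.23 (adjusted p = 0.130); the adjusted p was 0.0369 after quantile normalization and 0.0468 without NT1 replicate 2. PRKD2 had 10.4, 8.70 and 8.59 RPKM in PRKCI_KD and 11.1, 9.80 and 8.06 RPKM in NT1 (log2 fold change -0.05, interval -0.29 to 0.19, adjusted p = 0.732). PRKD3 had 8.75, 9.20 and 9.20 RPKM in PRKCI_KD and 8.14, 8.63 and 10.0 RPKM in NT1 (log2 fold change 0.02, interval -0.16 to 0.20, adjusted p = 0.871). Both PRKD2 and PRKD3 spread more within a group than between the groups. PRKD3 shares 265 exon bases with NDUFAF7 on the other strand, which had 5.29 to 10.5 RPKM.

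**Figure D2:**
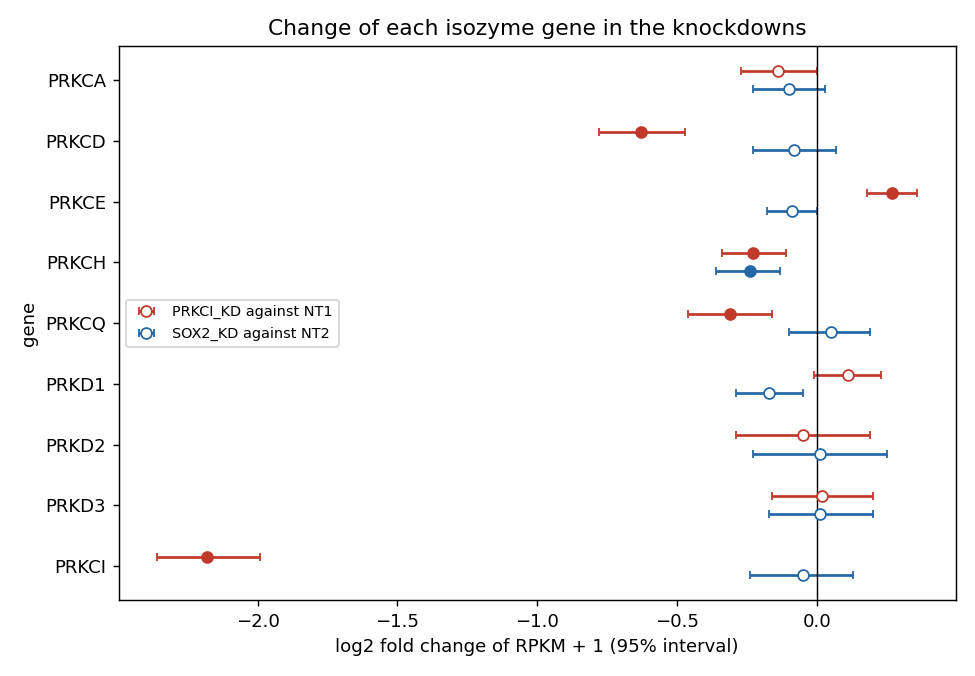
Log2 fold change of RPKM + 1 (horizontal axis) with its 95% interval for the 8 isozyme genes tested and PRKCI, in PRKCI_KD against NT1 (red) and in SOX2_KD against NT2 (blue); filled points passed the adjusted threshold of 0.05. PRKCD at -0.63, PRKCQ at -0.31, PRKCH at -0.23 and PRKCE at 0.27 are filled in red, and PRKCH at -0.24 is the only gene filled in blue.

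Summed over the 9 genes, the isozymes had 37.6, 35.6 and 35.8 RPKM in PRKCI_KD, against 41.0, 41.1 and 40.4 RPKM in NT1. The knockdown libraries were all lower, with means of 36.4 ± 1.11 RPKM in PRKCI_KD and 40.8 ± 0.371 RPKM in NT1 (SD, n = 3 each), a difference of -4.44 RPKM. For a sum over 3 and 3 libraries the smallest two-sided p of an exact permutation test is 0.1, so no test was made. Most of the difference was in the nPKC genes, which summed to 10.4 ± 0.442 RPKM in PRKCI_KD and 14.2 ± 0.386 RPKM in NT1. Within this class the means differed by -3.45 RPKM for PRKCD, -0.523 RPKM for PRKCQ and -0.397 RPKM for PRKCH. PRKCE went the other way, by 0.601 RPKM, so the class sum mainly followed PRKCD. The protein kinase D genes summed to 20.8 ± 0.792 RPKM in PRKCI_KD and 20.8 ± 0.702 RPKM in NT1. With PRKCI included, the sum was 38.9 ± 1.04 RPKM in PRKCI_KD against 55.7 ± 1.07 RPKM in NT1. In SOX2_KD the 9 genes summed to 51.5 ± 0.186 RPKM, against 54.3 ± 1.60 RPKM in NT2; libraries of the pair did not overlap here either, and PRKCA made up 44.5% of the sum in SOX2_KD and 45.5% in NT2.

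**Figure D3:**
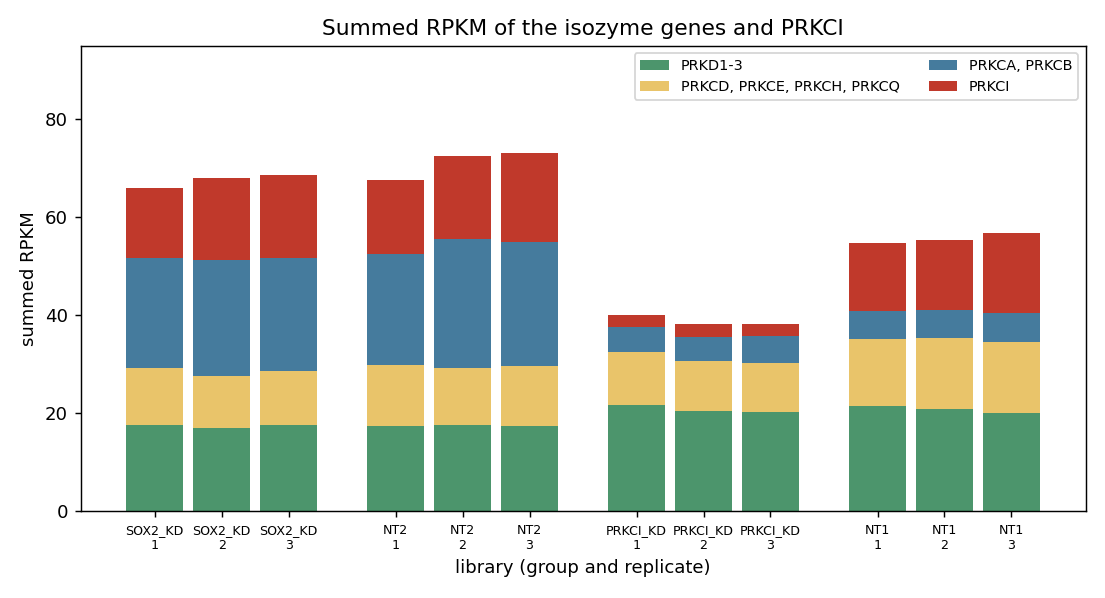
Summed RPKM (vertical axis, from 0) of the protein kinase D, nPKC and cPKC genes and of PRKCI in each of the 12 libraries, stacked by class. The nPKC sum, in which PRKCD differs most, and PRKCI are smaller in PRKCI_KD than in NT1. The protein kinase D sum averages 20.8 RPKM in both of these groups. The cPKC genes, almost wholly PRKCA, are larger on the flow cell of SOX2_KD and NT2.

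In SOX2_KD the single isozyme called was PRKCH, which was lower. All genes together gave 3.56% called higher and 4.62% called lower against NT2, and 0 of 8 isozymes called higher and 1 of 8 called lower cannot be told from such shares. The total of 1618 genes called was 3419 (1271 higher and 2148 lower) with the replicate number as a block, a fit in which PRKCH remained the only isozyme called. PRKCH had 1.32, 1.06 and 1.14 RPKM in SOX2_KD, against 1.57, 1.60 and 1.55 RPKM in NT2, with no overlap (ratio 0.748, log2 fold change -0.24, SE 0.05, interval -0.36 to -0.13, adjusted p = 0.0166). The call was lost with only the 6 libraries compared (adjusted p = 0.0534), without SOX2_KD replicate 2 (0.0800) or 3 (0.0725), and without NT2 replicate 2 (0.0605).

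PRKD1 and PRKCE were lower in each SOX2_KD library than in any NT2 library without passing the test. PRKD1 had 1.02, 0.913 and 1.04 RPKM in SOX2_KD, against 1.27, 1.23 and 1.23 RPKM in NT2 (log2 fold change -0.17, interval -0.29 to -0.05, adjusted p = 0.0856; 0.0382 without NT1 replicate 3, which enters through the shared estimate of the spread). PRKCE had 1.03, 1.0 and 1.0 RPKM in SOX2_KD and 1.16, 1.14 and 1.14 RPKM in NT2 (log2 fold change -0.09, adjusted p = 0.196). The ranges of the other 5 tested genes overlapped. PRKCA had 22.3, 23.6 and 23.0 RPKM in SOX2_KD, against 22.7, 26.2 and 25.2 RPKM in NT2 (log2 fold change -0.10, interval -0.23 to 0.03, adjusted p = 0.360). PRKCD had 7.09, 6.22 and 6.83 RPKM in SOX2_KD, against 7.70, 6.82 and 6.95 RPKM in NT2 (log2 fold change -0.08, interval -0.23 to 0.07, adjusted p = 0.552). Both genes were lower in SOX2_KD in all 3 same-numbered pairs, but neither passed with the block (adjusted p = 0.159 for PRKCA and 0.401 for PRKCD). For PRKCQ, 2.23, 2.50 and 2.21 RPKM in SOX2_KD stood beside 1.99, 2.13 and 2.53 RPKM in NT2, with an interval of -0.10 to 0.19 (adjusted p = 0.772). PRKD2 and PRKD3 each had a log2 fold change of 0.01, with intervals of -0.23 to 0.25 and -0.17 to 0.20. PRKCB, at 0.0681, 0.0864 and 0.0506 RPKM in SOX2_KD and 0.0641, 0.0957 and 0.103 RPKM in NT2, was again below the level filter, with 207 reads in all in SOX2_KD and 244 in NT2.

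The response to the PRKCI hairpin was then set against the response to the SOX2 hairpin, gene by gene, as the difference of the log2 fold changes. PRKCE and PRKD1 had a higher response in PRKCI_KD, and PRKCD and PRKCQ a lower one. All genes together gave 11.2% called higher and 14.8% called lower, beside 2 of 8 isozymes in each direction. The difference was 0.36 (SE 0.06, adjusted p = 9.53e-04) for PRKCE and 0.28 (SE 0.08, adjusted p = 0.0218) for PRKD1; the call of PRKD1 was lost without SOX2_KD replicate 2 (adjusted p = 0.0592). It was -0.55 (SE 0.10, adjusted p = 0.00206) for PRKCD and -0.36 (SE 0.10, adjusted p = 0.0179) for PRKCQ. PRKCH, called lower in both knockdowns, had a difference of 0.02 with an interval of -0.14 to 0.18 (adjusted p = 0.893), and for PRKCA, PRKD2 and PRKD3 the intervals also held 0. Each pair was sequenced on its own flow cell, so a response that depends on the state of the cells in that run cannot be told apart from the target.

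The largest difference of any isozyme on the log2(RPKM + 1) scale was in PRKCA between the controls. NT2 and NT1 were on different flow cells, so the control and the run cannot be told apart, and 36.0% of all genes were called higher and 42.2% lower in NT2. Of the 8 isozymes, 2 were called higher and 3 lower, no more than those shares. PRKCA averaged 24.7 ± 1.82 RPKM in NT2 and 5.81 ± 0.0736 RPKM in NT1 (SD, n = 3 each), a ratio of 4.25 (log2 fold change 1.91, SE 0.06, adjusted p = 9.90e-11). PRKCB moved the same way at its far lower level, with 244 reads in NT2 and 10 in NT1 (log2 fold change 0.12, adjusted p = 1.01e-04 in a fit without the level filter). PRKCQ was 1.31 times higher in NT2 (adjusted p = 0.00478). PRKD1, PRKCE and PRKCD were lower in NT2, at 0.554, 0.601 and 0.812 of NT1 (adjusted p = 3.17e-06, 1.20e-06 and 0.00390). The NT1 libraries that enter here also enter the comparison with PRKCI_KD. Correlations of log2(RPKM + 1) between libraries over the genes tested were 0.964 to 0.995 within lane 8 and 0.989 to 0.997 within lane 7, but 0.826 to 0.838 across them.

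PRKD2 and PRKD3 varied in opposite directions between replicates. PRKD2 was 0.16, 0.20, 0.11 and 0.12 above its group mean on the log2(RPKM + 1) scale in replicate 1 of PRKCI_KD, NT1, SOX2_KD and NT2, and PRKD3 was at -0.04, -0.12, -0.08 and -0.15 there. In NT1 replicate 3 the signs were the other way, with PRKD2 at -0.22 and PRKD3 at 0.16. Over the 12 libraries, as deviations from the mean of the flow cell, the correlation of the 2 genes was -0.90, a description of libraries that share runs and preparation. PRKD2 has a GC content of 62.0%, among the 12518 protein-coding genes with a value within the top 20% by GC content (58.5% and above), and PRKD3 has 38.2%, within the bottom 20% (40.8% and below). Medians over those groups of genes moved with the libraries in the same way, from 0.094 to 0.144 for high GC and from -0.106 to -0.076 for low GC in replicate 1 of the 4 groups, and -0.164 for high and 0.126 for low GC in NT1 replicate 3. The part of GC content in the values of PRKD2 and PRKD3 was not tested. The GC content of PRKCD was 56.1% and that of PRKCE 47.4%, against a median of 48.2%.

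**Figure D4:**
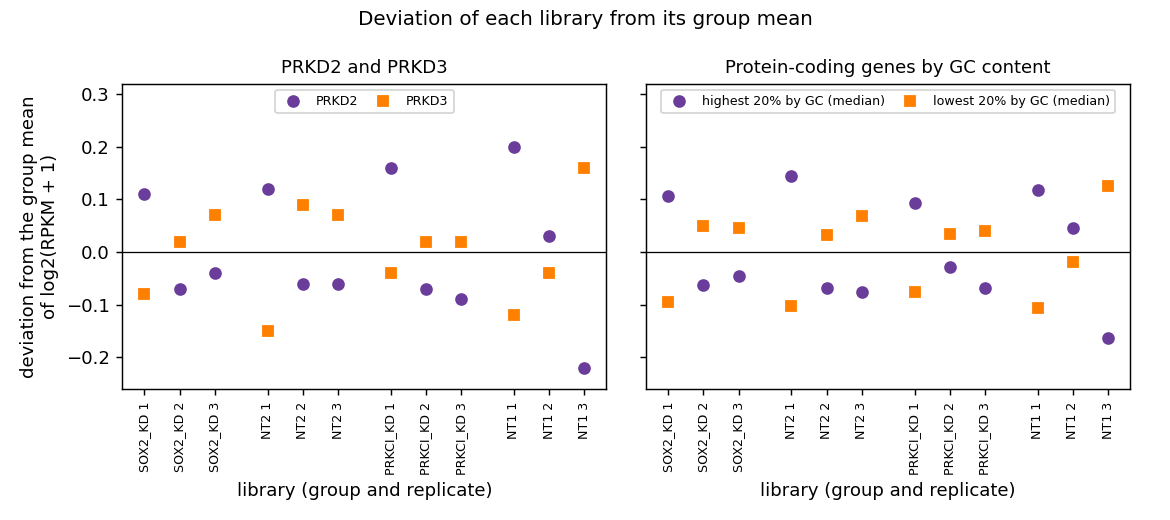
Deviation of each library from its group mean on the log2(RPKM + 1) scale (vertical axis) for PRKD2 and PRKD3 (left) and as the median over the protein-coding genes in the highest and lowest 20% by GC content (right). Replicate 1 of every group has PRKD2 and the high GC genes above 0 and PRKD3 and the low GC genes below 0, and NT1 replicate 3 has the reverse.

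The genes most like the 3 isozymes with the largest changes were found by Pearson correlation over the 12 libraries, as deviations from the mean of each flow cell. For PRKCD they were GRK5 (0.991), SPR (0.990) and TROAP (0.990), with log2 fold changes in PRKCI_KD of -0.28, -0.66 and -0.85. For PRKCE they were ALKBH5 (0.998), PDGFB (0.997) and RHOB (0.994), which stood at 1.04, 1.1 and 1.37 in PRKCI_KD and at -0.36, -0.39 and -0.57 in SOX2_KD. That their signs match PRKCE follows from the selection, because the deviations include the difference between knockdown and control. For PRKCQ they were REST (0.956), MAN1A1 (0.946) and LHFPL5 (0.944). The libraries share groups and runs, so these values describe likeness over the groups only. Among the isozymes themselves PRKCD and PRKCE had a correlation of -0.82 and PRKCE and PRKCQ of -0.87. These deviations include the same difference, with PRKCE called higher and PRKCD and PRKCQ lower in PRKCI_KD. The negative signs are therefore not separate from those calls.

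Upstream of the isozymes, phospholipases C make diacylglycerol. Of 12 listed genes 9 were tested, and 2 were called higher and 2 lower in PRKCI_KD, with a median log2 fold change of 0.00. These counts, and those of the next 2 lists, are small and are read against 18.1% higher and 27.0% lower over all genes, from which they do not set the lists apart. PLCG1, the phospholipase of receptor tyrosine kinases, averaged 12.6 RPKM in PRKCI_KD and 17.0 RPKM in NT1 (log2 fold change -0.41, adjusted p = 9.42e-05). PLCE1, which binds RAS, was at -0.28, and PLCB4 and PLCD1 at 0.18 and 0.32. Of the 7 diacylglycerol kinases tested, of 10, which remove the lipid, DGKD was higher (9.69 RPKM in PRKCI_KD against 6.95 RPKM in NT1, adjusted p = 2.92e-04) and DGKQ and DGKA were lower (adjusted p = 0.0148 and 0.0499). Of the 6 other diacylglycerol receptors tested, of 11, UNC13A was higher (log2 fold change 0.41) and CHN2, CDC42BPA and UNC13B were lower (-0.14, -0.22 and -0.15). In SOX2_KD none of the genes tested from these 3 lists passed.

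Of 11 genes tested that mature the isozymes or end their signal, 0 were called higher and 5 lower in PRKCI_KD, beside 18.1% and 27.0% of all genes. The median log2 fold change was -0.21, and that of all genes was -0.036. MAPKAP1, a subunit of the mTORC2 kinase that phosphorylates the tail of cPKC and nPKC isozymes, averaged 19.6 RPKM in PRKCI_KD and 27.6 RPKM in NT1 (log2 fold change -0.47, adjusted p = 7.62e-06), and it was also lower in SOX2_KD, at 13.7 RPKM against 16.3 RPKM in NT2 (adjusted p = 0.00784). The chaperone HSP90AA1 was at -0.59 and the PKC phosphatase PHLPP1 at -0.21 (adjusted p = 0.00205 and 0.00308).

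Of 15 listed anchors and substrates of protein kinase C, 11 were tested in PRKCI_KD, and 8 were called lower and 1 higher, where all genes gave 27.0% lower and 18.1% higher. The median log2 fold change was -0.31, and that of all genes was -0.036. Between the controls 8 of the 11 were also called lower in NT2 than in NT1 and 2 higher. All genes gave 42.2% lower and 36.0% higher there. MARCKSL1, a membrane-bound substrate that holds actin and phosphoinositides, had 34.0, 32.8 and 32.4 RPKM in PRKCI_KD, against 96.5, 88.0 and 95.5 RPKM in NT1 (log2 fold change -1.47, adjusted p = 1.62e-07). The related MARCKS averaged 33.5 RPKM in PRKCI_KD and 50.9 RPKM in NT1 (adjusted p = 8.81e-04). AKAP12, a scaffold for PKC and PKA, averaged 28.2 RPKM in PRKCI_KD and 51.3 RPKM in NT1 (log2 fold change -0.83, adjusted p = 4.23e-06), and GAP43 and ADD2, substrates at the cell cortex, were at -0.80 and -0.46. GNB2L1, which encodes RACK1, an anchor of active PKC that is also a ribosomal protein, was the gene called higher, at 0.38 in PRKCI_KD and 0.27 in SOX2_KD (adjusted p = 3.26e-04 and 0.0175). MARCKSL1 was also lower in SOX2_KD (34.1 RPKM against 44.6 RPKM in NT2, adjusted p = 0.0159), and its responses differed by -1.09 (adjusted p = 5.36e-05).

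Of 10 substrates of protein kinase D, 2 were called higher and 3 lower in PRKCI_KD, close to the shares of all genes (18.1% and 27.0%), so the counts say nothing particular to the list. HDAC5, a class IIa histone deacetylase that leaves the nucleus when protein kinase D phosphorylates it, had 13.3, 12.0 and 11.9 RPKM in PRKCI_KD, against 6.99, 7.08 and 5.09 RPKM in NT1 (log2 fold change 0.87, adjusted p = 1.11e-04). HDAC9 was higher too, at a lower level (1.28 RPKM in PRKCI_KD against 0.773 RPKM in NT1, adjusted p = 9.65e-04). KIDINS220 and RIN1 were lower, at -0.39 and -0.51 (adjusted p = 3.45e-04 and 0.00847). None of the 10 passed in SOX2_KD. PRKCZ, which encodes the other atypical isozyme, had 5.27, 4.82 and 4.73 RPKM in PRKCI_KD, against 5.35, 5.60 and 4.61 RPKM in NT1 (log2 fold change -0.06, adjusted p = 0.608).

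Beside these changes some markers of cell state also moved. Of the 5 epithelial markers 3 were tested, and in each knockdown KRT18 was called higher and 2 did not pass. EPCAM and CDH1 were too low to be tested. KRT18 was higher in PRKCI_KD (136 ± 8.23 RPKM, against 108 ± 12.5 RPKM in NT1; SD, n = 3 each) and in SOX2_KD (70.1 ± 1.80 RPKM, against 55.1 ± 2.34 RPKM in NT2), and the 5 epithelial markers summed to 229 to 255 RPKM in PRKCI_KD and 180 to 244 RPKM in NT1. VIM was lower in PRKCI_KD (453 ± 15.9 RPKM, against 598 ± 53.6 RPKM in NT1), and NKX2-1, a transcription factor of lung epithelium, was lower there at under 1 RPKM (adjusted p = 0.0281). In SOX2_KD neither gene passed, with log2 fold changes of -0.12 for VIM and 0.16 for NKX2-1 (adjusted p = 0.340 and 0.0820). The fibroblast list summed to 0.613 to 0.762 RPKM in PRKCI_KD and 0.809 to 1.12 RPKM in NT1. Their part in the isozyme values was not tested.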

How the data were processed

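RNA of 12 libraries of H1299 spheroids was sequenced from 120 ng of total RNA with both ends read over 101 bases, per the labels' protocols, using an unstranded kit. The authors deposited RPKM values, 1 column per library, per the file headers; the submitters' processing notes name TopHat2 2.1, Bowtie 1.1.2, featureCounts and GRCh38, the annotation and strand setting being not given in the sources used here. Of 64253 entries, 7091 with a repeated name or a date as name were left out. Whole-number read totals and gene lengths were solved from the RPKM steps: among 38880 entries with 3 or more libraries above 0, 38846 (99.91%) came out as whole reads within 0.001 reads, the 9 isozymes among them, but not SOX2.

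The 19777 genes that reached 0.5 RPKM in 3 or more libraries entered the limma-trend test (limma version 3.58.1 under R version 4.3.3). It took log2(RPKM + 1) of the 12 libraries and 4 group means, and p-values were adjusted by Benjamini-Hochberg. Same-numbered SOX2_KD and NT2 libraries deviated together (correlations 0.51, 0.24 and 0.24), but SOX2_KD replicate 2 also had 0.24 with NT2 replicate 3. Equal numbers of NT2 and NT1, on different flow cells, gave 0.49, -0.11 and 0.36. Whether the numbers pair SOX2_KD and NT2 libraries therefore cannot be told. The values printed are from the fit without the block, the shares of all genes included. Blocked values are given where the call of an isozyme changed and for the genes called in each knockdown. With the block 4381 genes were called higher and 6387 lower in PRKCI_KD. In the difference of responses 7248 genes were called with the block, against 5155. The isozymes and the gene lists were chosen with earlier results of these data known. All 9 isozymes and up to 4 called genes per list, those of smallest p in PRKCI_KD, are named. Some listed genes are not reported here. PRKCI, SOX2 and PRKCZ, the genes most like 3 isozymes, and genes whose exons overlap an isozyme are named too. GNB2L1, MARCKS, KRT8, EPCAM, CDH1, CD3E and PRKCQ-AS1 were chosen after their values were seen. Alternatives were 2 other pseudocounts, other level filters and scalings, no trend, a replicate block, only the libraries compared, and leaving out each library. Gene positions and overlaps are from GENCODE 29, and promoters from RefSeq.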

Additional observations from a re-analysis of the deposited data

Results flagged for a closer look

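The response to the PRKCI hairpin differed from the response to the SOX2 hairpin for 4 isozymes, by an interaction contrast in limma over all genes (adjusted p under the threshold of 0.05). Over all genes tested, 11.2% were called higher and 14.8% lower, beside 2 of 8 isozymes in each direction. The difference of log2 fold changes, PRKCI_KD against NT1 minus SOX2_KD against NT2, was 0.36 for PRKCE, -0.55 for PRKCD, -0.36 for PRKCQ and 0.28 for PRKD1. For PRKD1 neither response passed on its own, at 0.11 in PRKCI_KD and -0.17 in SOX2_KD, and the 2 go in opposite directions; the call was lost without SOX2_KD replicate 2 (adjusted p = 0.0592). The pairs were on different flow cells, so target and run cannot be told apart.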

How the results depend on the processing

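In PRKCI_KD the calls of PRKCD, PRKCE, PRKCH and PRKCQ were kept under all 21 alternatives, with adjusted p up to 0.00167, 0.0103, 0.0185 and 0.0144, and 4 isozymes were called, or 5 with quantile normalization, with the replicate block, and without PRKCI_KD replicate 3, NT1 replicate 2 or NT2 replicate 1. In SOX2_KD the count of isozymes called was 0 with only the 6 libraries compared and 0 to 2 when a library was left out, around a value of 1. Genes called in SOX2_KD numbered 1618, 3419 with the replicate block, and 681 to 2230 when a library was left out, with 1075, 691 and 681 without SOX2_KD replicates 1, 2 and 3 and 856 and 903 without NT2 replicates 2 and 3; the cause was not tested. They split into 705 higher and 913 lower, 741 and 574 after quantile normalization, and 822 and 825 with median-of-ratios scaling; for NT2 against NT1 the splits were 7126 and 8351, 7934 and 7465, and 7786 and 7705.

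Signs turned only for log2 fold changes that did not pass: to 0.01 for PRKD2 in PRKCI_KD, 0.00 for PRKCI in SOX2_KD and 0.07 for PRKCH in NT2 with quantile normalization, and to 0.00 for PRKCA in the difference of responses at a pseudocount of 5. With a library left out, values ran from -0.16 to 0.05 for PRKD2 and -0.04 to 0.10 for PRKD3 in PRKCI_KD. In SOX2_KD they ran from -0.01 to 0.11 for PRKCQ, -0.05 to 0.07 for PRKD2, -0.06 to 0.06 for PRKD3 and -0.12 to 0.02 for PRKCI. In the difference of responses they ran from -0.08 to 0.02 for PRKCA, -0.02 to 0.06 for PRKCH, -0.17 to 0.04 for PRKD2 and -0.05 to 0.08 for PRKD3. In NT2 against NT1, PRKD2 passed without NT1 replicate 3 (adjusted p = 0.0138) and PRKD3 without NT1 replicate 1 (0.0481), and PRKCI passed in 3 alternatives. For PRKCI_KD and NT1 the same-numbered libraries correlated at 0.49, -0.11 and 0.34. Replicates 1 and 3 of PRKCI_KD correlated best with the same number, and replicate 2 with another (0.25 with NT1 replicate 3). Whether the numbers pair PRKCI_KD and NT1 libraries therefore cannot be told. The block moved the genes called in PRKCI_KD to 10768 against 8928. NT2 and NT1 have no blocked value. Depth limits PRKCB, which has 0 to 105 reads a library.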

Other observations

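PRKCQ-AS1, a noncoding gene beside PRKCQ, had 1.40 RPKM in SOX2_KD, 1.36 RPKM in NT2, 0.603 RPKM in PRKCI_KD and 0.643 RPKM in NT1 on average. It was higher in NT2 than in NT1 (ratio 2.11, adjusted p = 4.07e-06, limma), as was PRKCQ, but in PRKCI_KD, where PRKCQ was lower, its log2 fold change was -0.04 (adjusted p = 0.631). SOX2 was lower in PRKCI_KD as well, at 1.78, 2.27 and 2.01 RPKM, against 3.15, 2.98 and 2.91 RPKM in NT1 (log2 fold change -0.41, adjusted p = 2.51e-04), while PRKCI had 14.4, 16.8 and 17.0 RPKM in SOX2_KD, against 15.1, 16.9 and 18.2 RPKM in NT2 (log2 fold change -0.05, adjusted p = 0.789).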
